A study of Mus musculus with 24 samples.

Results

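The transcripts of neutrophil granule proteins were followed in 4 sorted myeloid populations of the mouse colon, in lamina propria (LP) and in tumours. The 10 genes listed were Mpo, Elane, Prtn3, Ctsg, Ltf, Camp, Ngp, Lcn2, Pglyrp1 and Lyz2, and they were found in the expression table by gene symbol, through the Ensembl identifier. A row was held by 9 of the 10, out of 17301 genes in the table, and Ctsg was not analysed here. The LP came from C57BL/6J mice (strain C57/BL in the labels) and the tumours from colons of ApcMin/+ mice (APC/Min in the labels), which carry a germline Apc mutation and form intestinal adenomas. The study's methods describe treatment with dextran sodium sulphate (DSS) for the tumour-bearing mice and for control mice, while the labels call the LP healthy, and they give no age for a library. Each library was made from the pooled tissue of several mice. The populations were Ly6Ghi F4/80- CD11b+ neutrophils, Ly6Chi MHCII- monocytes, F4/80hi MHCIIhi macrophages and F4/80hi MHCIIlow macrophages, with 3 libraries for each population and tissue, 24 in all. Libraries are named by the roman numeral that the labels give as the donor. A numeral shared by LP and tumour does not name the same mice. The epithelium was stripped from LP before digestion, tumours were cut and digested directly, and the density gradients differed, so tissue and tissue handling cannot be told apart in any comparison of tumour with LP.

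Neutrophils build their granules in sequence during maturation in the bone marrow. Promyelocytes make the primary (azurophil) granules with myeloperoxidase and the serine proteases, myelocytes and metamyelocytes make the secondary (specific) granules with lactoferrin, cathelicidin and lipocalin 2, and gelatinase granules follow. The transcripts of a wave decline as cells mature further, so mature neutrophils of blood and tissue keep the proteins in their granules with little of the earliest messenger RNA. Lysozyme is packed into several granule types and is also a major product of monocytes and macrophages. The transcription factors PU.1 and C/EBP-alpha act on primary granule genes in progenitors, and C/EBP-epsilon is needed for the secondary granule genes.

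The promoters of both waves are shown because the genes of the 2 waves were at very different levels in the sorted neutrophils. Each sequence holds the 250 bases before the RefSeq start of the gene on build GRCm38.p6, read 5′ to 3′ on the strand of the gene. Matches to TTNNGCAA, the core of a C/EBP site, on either strand are in capitals for Ltf at chr9:111019042-111019291 (+ strand), Camp at chr9:109849457-109849706 (- strand), Ngp at chr9:110419558-110419807 (+ strand) and Lcn2 at chr2:32387740-32387989 (- strand).
Ltf: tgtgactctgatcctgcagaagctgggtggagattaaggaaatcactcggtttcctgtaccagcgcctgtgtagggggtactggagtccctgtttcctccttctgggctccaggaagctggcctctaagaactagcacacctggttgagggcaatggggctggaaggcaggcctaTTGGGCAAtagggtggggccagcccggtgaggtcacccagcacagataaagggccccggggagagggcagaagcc
Camp: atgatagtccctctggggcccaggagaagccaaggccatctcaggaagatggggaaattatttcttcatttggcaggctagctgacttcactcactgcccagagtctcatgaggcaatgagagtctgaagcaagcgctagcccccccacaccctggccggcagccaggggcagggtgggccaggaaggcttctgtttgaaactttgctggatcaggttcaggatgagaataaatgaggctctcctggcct
Ngp: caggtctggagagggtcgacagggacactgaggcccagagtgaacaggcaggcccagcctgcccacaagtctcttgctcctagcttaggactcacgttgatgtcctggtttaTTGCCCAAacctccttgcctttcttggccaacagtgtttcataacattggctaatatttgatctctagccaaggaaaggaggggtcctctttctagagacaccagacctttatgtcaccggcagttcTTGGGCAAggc
Lcn2: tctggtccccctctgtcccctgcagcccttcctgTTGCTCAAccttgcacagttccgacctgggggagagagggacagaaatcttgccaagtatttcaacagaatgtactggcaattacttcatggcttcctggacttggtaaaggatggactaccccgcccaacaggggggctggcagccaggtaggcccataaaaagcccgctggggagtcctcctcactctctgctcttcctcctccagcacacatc
The Ltf promoter held 1 such match, with its first base at -75 from the start, Ngp held 2, at -138 and -11, and Lcn2 held 1, at -216. These letters were not found in the Camp window. They were found in 9.56% of 32851 RefSeq promoter windows of this length. Matches to GAGGAA, the core of a PU.1 site, on either strand are in capitals for the primary granule genes Elane at chr10:79886062-79886311 (+ strand) and Prtn3 at chr10:79879417-79879666 (+ strand).
Elane: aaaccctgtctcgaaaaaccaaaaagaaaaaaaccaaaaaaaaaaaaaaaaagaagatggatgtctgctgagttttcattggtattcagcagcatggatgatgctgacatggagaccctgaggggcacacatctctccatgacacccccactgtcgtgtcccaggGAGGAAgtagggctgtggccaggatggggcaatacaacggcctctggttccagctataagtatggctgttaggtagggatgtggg
Prtn3: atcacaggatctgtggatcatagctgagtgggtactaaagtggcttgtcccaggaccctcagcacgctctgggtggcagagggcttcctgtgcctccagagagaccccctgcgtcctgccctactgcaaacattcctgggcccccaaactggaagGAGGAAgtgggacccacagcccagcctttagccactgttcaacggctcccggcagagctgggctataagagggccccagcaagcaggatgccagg
The match was at -85 in Elane and at -95 in Prtn3. Mpo held 2 matches, at -247 and -224, and Ctsg 1, at -216, so that all 4 primary granule genes listed had these letters, against 23.3% of the promoter windows. Of the other members, Ltf, Lcn2 and Pglyrp1 also held them, and Camp, Ngp and Lyz2 did not. The C/EBP letters TTNNGCAA were not found in the windows of Mpo, Elane, Prtn3, Ctsg, Pglyrp1 or Lyz2. The motifs do not overlap each other, and a match is a run of letters and not a measured binding site.

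The values were log2 RPKM (reads per kilobase of gene, scaled for library size), which can be compared between genes because they are per length. Read counts were recovered from them, and the libraries held 12.84 M to 41.72 M reads on genes (median 26.39 M). A library with 0 reads of a gene is listed at a small positive RPKM, and 3 reads in a library were taken as the floor of detection, a limit that covers counting error only. All 8 neutrophil marker genes were above that floor in each neutrophil library, with a summed level of 13956 to 17325 RPKM in LP and 25750 to 35603 RPKM in tumours, against 312 to 764 RPKM in monocytes. Marker genes of other cells also differed by tissue in the neutrophil libraries. The summed level of 8 epithelial genes was 12.7 to 62.2 RPKM in LP and 151 to 307 RPKM in tumours, that of 6 B and plasma cell genes was 358 to 1300.3 RPKM in LP and 0.66 to 20.1 RPKM in tumours, and that of 6 fibroblast genes was 20.7 to 40.3 RPKM in LP and 1.27 to 1.57 RPKM in tumours. The part of these cells in the tissue differences below was not tested. The deposited library sizes were 0.466 to 0.483 times the reads for tumour neutrophils and 0.630 to 0.682 times for LP neutrophils. Scaling by summed reads instead lowers the median difference of tumour from LP neutrophils by 0.47 on the log2 scale. Fewer neutrophils of one stage and less RNA per neutrophil cannot be told apart in these bulk libraries. The p values of the main fit measure the spread of libraries within groups, pooled over all 8 groups of 3 libraries. A gene therefore has the same SE in each comparison of 2 groups, and that SE includes its spread in groups with few reads.

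Transcripts of Mpo, Elane and Prtn3 were scarce in neutrophils of both tissues, with 0 to 37 reads in each library. Mpo, which codes for myeloperoxidase, had 4, 37 and 4 reads in LP neutrophils III, IV and V, and 7, 5 and 0 reads in tumour neutrophils I, II and V. No Mpo level exceeded 0.807 RPKM in these 6 libraries, and the tissues overlapped. Elane, coding for neutrophil elastase, had 4, 8 and 0 reads in LP and 0 reads in each tumour library. Prtn3, coding for proteinase 3, had 16, 6 and 24 reads in LP neutrophils and 7, 6 and 11 in tumour neutrophils, with overlapping levels of 0.263 to 0.650 and 0.329 to 0.833 RPKM. Mpo and Elane stayed below the mean level of 1 RPKM in a group that was required for testing. Prtn3 was tested and differed by 0.27 on the log2 scale (SE 1.16, adjusted p = 0.894). Exons of Mpo and Prtn3 overlap genes on the opposite strand (Gm11505 and Plppr3), and reads of such pairs cannot be told apart without strand.

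Prtn3 was highest in tumour monocytes, with 128, 108 and 66 reads (2.47, 2.21 and 1.48 RPKM), against 10, 52 and 34 reads (0.235, 0.687 and 0.545 RPKM) in LP monocytes. All 3 tumour libraries were above all 3 LP libraries. The difference was 2.17 on the log2 scale (SE 1.16) and did not pass the test (adjusted p = 0.287), with adjusted p from 0.000406 to 0.547 over 15 alternatives and 3 of them under 0.05. Mpo had 30, 51 and 16 reads in LP monocytes and 13, 14 and 0 in tumour monocytes, at most 0.351 RPKM, so its highest library was LP neutrophil library IV. Elane had 0, 42 and 10 reads in LP monocytes and 10, 0 and 14 in tumour monocytes, so its reads were absent from 1 library of each. Macrophages held at most 8 reads of Mpo and 10 of Prtn3 in any library, and Elane was at 0 reads in 11 of the 12 macrophage libraries, with 19 reads in tumour MHCIIlow library V.

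**Figure D1:**
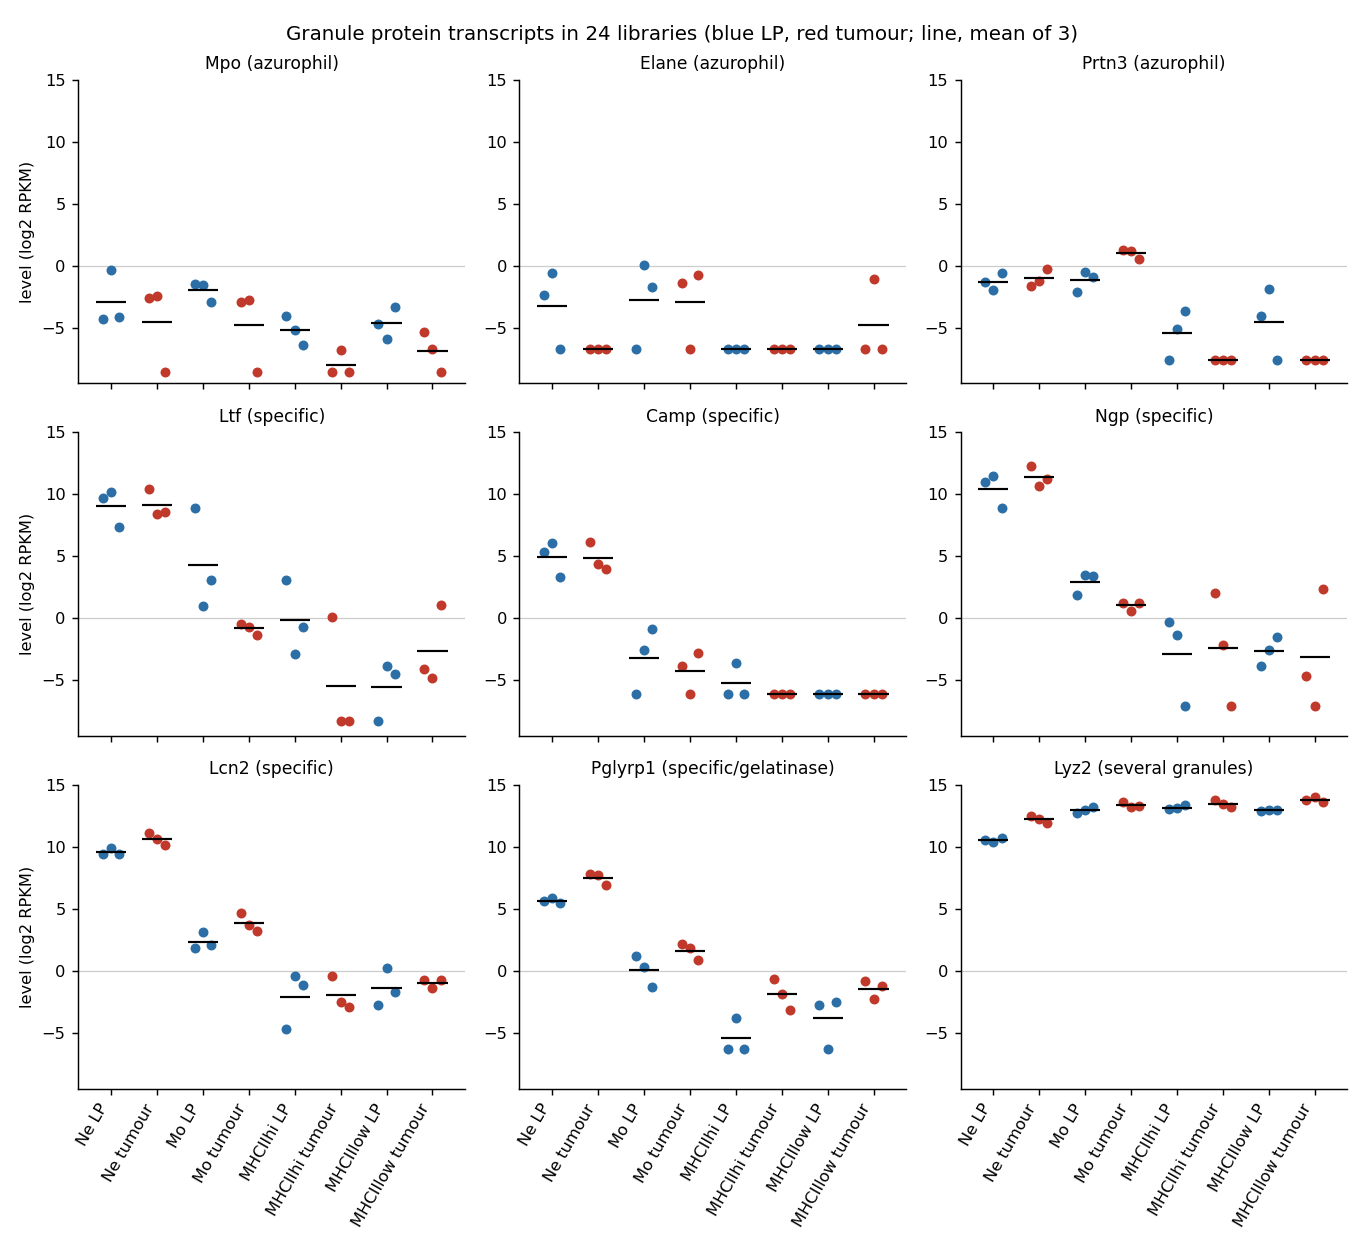
Levels in log2 RPKM (vertical axis) of the 9 granule protein genes in 8 groups, 1 point per library, blue for LP and red for tumour, with a line at the mean of 3 libraries. Ne stands for neutrophils and Mo for monocytes, and the lowest level of each gene is that listed for 0 reads. Ltf, Camp, Ngp, Lcn2 and Pglyrp1 are highest in neutrophils, Mpo, Elane and Prtn3 stay near or below 0, and Lyz2 is lowest in LP neutrophils.

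Transcripts of the specific granule were abundant in neutrophils of both tissues, and Ltf, Camp and Ngp did not pass the test of tumour against LP. Ngp, which codes for neutrophilic granule protein, was the highest of them, at 2007, 2822 and 473 RPKM in LP libraries III, IV and V and at 5151, 1668 and 2415 RPKM in tumour libraries I, II and V. The tissues overlapped, since LP IV was above tumour II and V. The difference was 0.98 on the log2 scale (SE 2.06, adjusted p = 0.758). Ltf, coding for the iron-binding lactoferrin, was at 856, 1149 and 163 RPKM in LP and 1412, 341 and 378 RPKM in tumours. Its difference was 0.06 (SE 2.17, adjusted p = 1), and its sign turned to -0.41 with library sizes as summed reads and to -0.81 without LP library V. Camp, coding for the antimicrobial peptide precursor cathelicidin, was at 41.0, 68.6 and 9.965 RPKM in LP and 69.9, 20.7 and 16.1 RPKM in tumours. Its difference was -0.09 (SE 1.17, adjusted p = 0.977), and it was 0.50 without LP library IV. The 95% intervals ran from -4.48 to 4.60 for Ltf, from -2.52 to 2.35 for Camp and from -3.32 to 5.29 for Ngp. Differences of several fold in either direction thus lay within the intervals of this fit, which pools the spread of all 8 groups. With only the neutrophil groups compared, the SE was 0.95 for Ltf, 0.92 for Camp and 0.80 for Ngp. None of these genes passed in that fit (adjusted p = 0.984, 0.969 and 0.444).

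In LP, these 3 genes moved together from library to library, and in tumours they shared their highest library, I. From tumour library II to V, Ngp and Ltf were higher and Camp was lower (20.7 and 16.1 RPKM). In both tissues the 3 genes varied far more than most genes. Relative to the mean of LP libraries III and IV, Ltf was 6.08-fold, Camp 5.32-fold and Ngp 5.03-fold lower in LP library V. They ranked 4, 5 and 6 from the lowest end among 3603 genes with a mean of at least 10 RPKM in LP neutrophils. In tumours, library I was above the mean of II and V by 3.93-fold for Ltf, 3.82-fold for Camp and 2.57-fold for Ngp, at ranks 2, 3 and 15 from the highest end of 3405 genes. The SD over the LP libraries was 1.52 for Ltf, 1.44 for Camp and 1.37 for Ngp on the log2 scale, against a median of 0.216 over the 3603 genes. In tumours it was 1.14, 1.13 and 0.829, against a median of 0.215. Lcn2, Pglyrp1 and Lyz2 did not share this spread, as they had SDs of 0.264, 0.194 and 0.150 in LP and 0.481, 0.489 and 0.263 in tumours.

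LP library V and tumour library I were picked because Ltf, Camp and Ngp stood apart there, after their levels were seen. Of 13 other specific granule genes, 10 were lower in LP library V than the mean of the other LP libraries. In tumour library I, 11 were higher than the mean of the other tumour libraries, 9 of them both. The share of all genes lower or higher in these libraries was not counted. Hp, Tcn2 and Ltb4r1 differed by 1.15-fold or less in both libraries. Orm1, coding for an acute-phase glycoprotein, was 3.54-fold higher in tumour library I and 1.15-fold lower in LP library V. Cd177, coding for a surface protein of specific granules, was 3.86-fold lower in LP library V and 1.97-fold higher in tumour library I. The neutrophil collagenase Mmp8 was 2.76-fold lower and 1.56-fold higher, Itgb2l 2.52-fold lower and 1.74-fold higher, and Ly6g, the sorting antigen, 1.86-fold lower and 1.96-fold higher. The receptors Csf3r and Cxcr2 differed by 1.03-fold and 1.06-fold in LP library V and by 1.15-fold and 1.19-fold in tumour library I. They belong to 13 genes of band and mature neutrophils, of which 9 were lower in LP library V and 9 higher in tumour library I, 8 of them both. Of 8 gelatinase granule genes, 5 were lower and 6 higher, 5 of them both. The median log2 differences were -0.24 and 0.18 for the 13 genes and -0.41 and 0.29 for the 8. For the other specific granule genes they were -0.47 and 0.61. Over all genes with a mean of at least 10 RPKM in neutrophils of the tissue they were -0.03 and 0.02. Among the regulators, Cebpb was 310 RPKM in LP library V, against 2.51 and 1.69 RPKM in III and IV. The summed B and plasma cell level was also highest in LP library V, at 1300.3 RPKM against 464 and 358 RPKM, as was the epithelial level, at 62.2 against 21.9 and 12.7 RPKM. Their part in the low granule levels of that library was not tested. Cebpe, the regulator of specific granule genes, had 43, 38 and 63 reads in LP III, IV and V, and was not lowest in V. By level, Cebpe was 1.30-fold above the mean of III and IV in LP library V. In tumour library I it was 3.95-fold above the mean of II and V. Of 8 regulators, 0 were lower in LP library V and 6 were higher in tumour library I.

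**Figure D2:**
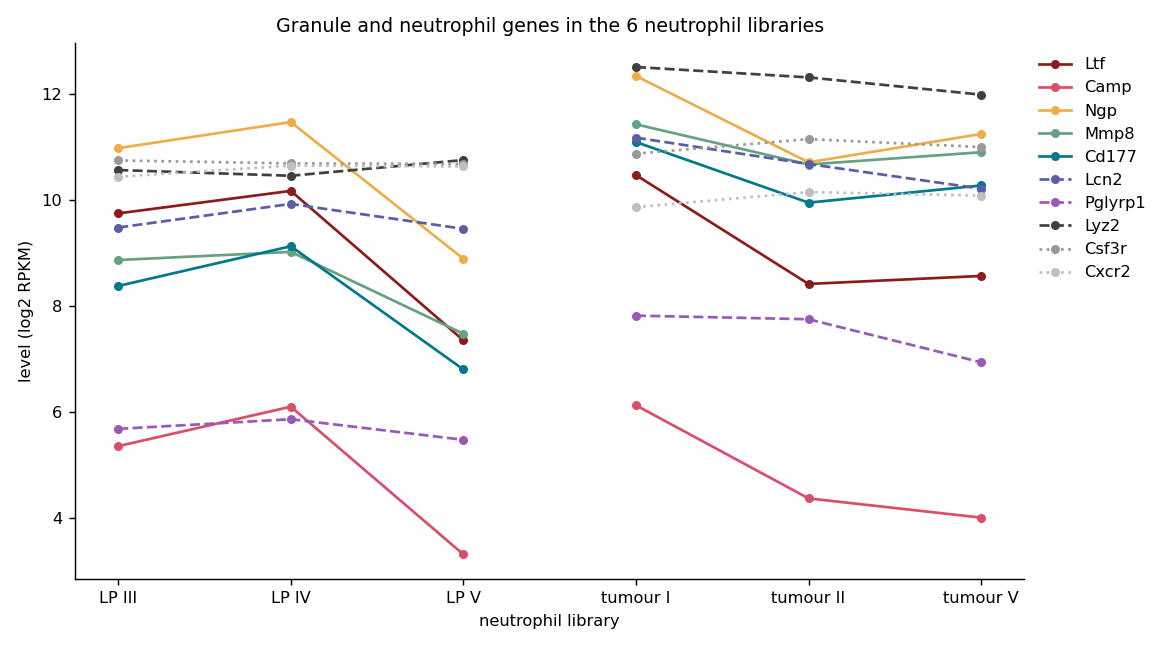
Levels in log2 RPKM (vertical axis) of 10 genes in each of the 6 neutrophil libraries (horizontal axis), with lines joining the points of a gene within a tissue for reading only. Ltf, Camp, Ngp, Mmp8 and Cd177 drop together in LP library V and are highest in tumour library I, while Csf3r, Cxcr2, Lcn2 and Pglyrp1 stay closer to level.

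Lcn2 and Pglyrp1 were higher in each tumour neutrophil library than in any LP neutrophil library, without passing the test. Lcn2, coding for the siderophore-binding lipocalin 2, was at 712, 969 and 699.8 RPKM in LP and 2303, 1631 and 1182 RPKM in tumours. The difference was 1.07 on the log2 scale, or 2.09-fold (SE 0.86, adjusted p = 0.373). Pglyrp1, coding for a peptidoglycan recognition protein, was at 51.4, 58.25 and 44.5 RPKM in LP and 225, 215 and 122.5 RPKM in tumours. Its difference was 1.83, or 3.54-fold (SE 0.91, adjusted p = 0.134). Such separation upwards, with all tumour libraries above all LP libraries, was found for 18.3% of the 12878 genes tested. Both calls depended on the fit. Over 16 alternatives the adjusted p of Pglyrp1 ran from 5.53e-06 to 0.327, with 4 under 0.05, and that of Lcn2 from 0.00239 to 0.755, with 2 under 0.05. With voom on the recovered reads, the SE fell to 0.24 for each gene and both passed (adjusted p = 0.00239 for Lcn2 and 5.53e-06 for Pglyrp1). With only the neutrophil groups compared, Pglyrp1 passed (SE 0.27, adjusted p = 0.0112) and Lcn2 did not (SE 0.29, adjusted p = 0.0588). Lcn2 is also a product of inflamed epithelium, and the epithelial levels given above were higher in tumour neutrophil libraries. Tumour monocytes had a summed epithelial level of 104 to 316 RPKM, with Lcn2 at 9.63 to 25.9 RPKM. The part of epithelium in the Lcn2 difference of neutrophils was not tested.

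Lyz2 was the only member that passed the main test of tumour against LP neutrophils, and it was higher in tumours. Lyz2 was high in all 8 groups and had the smallest SE of the 7 members tested. Pglyrp1 had a larger difference (1.83, SE 0.91) and passed in some alternatives only. Lyz2 was at 1508, 1399.7 and 1718 RPKM in LP libraries III, IV and V and at 5789, 5058 and 4037 RPKM in tumour libraries I, II and V. The groups did not overlap. The difference was 1.68 on the log2 scale, or 3.19-fold (SE 0.27, adjusted p = 8.64e-05), and it passed in all 16 alternatives, with values from 1.15 to 1.82. Thus 1 of the 7 members tested was called in this comparison, against 32.2% of all genes tested in either direction and 13.1% called higher. The median difference over the 7 members was 0.98, against -0.12 over all genes tested, and 6 of the 7 were above 0. With library sizes as summed reads the median was 0.52 and 4 of the 7 were above 0, and with quantile normalization it was 0.51 and 5 were above 0. The neighbouring gene Lyz1 shares 14.8% of the 51-base stretches of Lyz2, and was at 5.13 to 13.8 RPKM in LP neutrophils and 25.8 to 69.3 RPKM in tumour neutrophils, so reads assigned to Lyz1 were few beside those of Lyz2. The summed level of 6 monocyte marker genes was 595 to 734 RPKM in LP neutrophils and 819 to 1083 RPKM in tumour neutrophils, and its part in the Lyz2 difference was not tested.

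**Figure D3:**
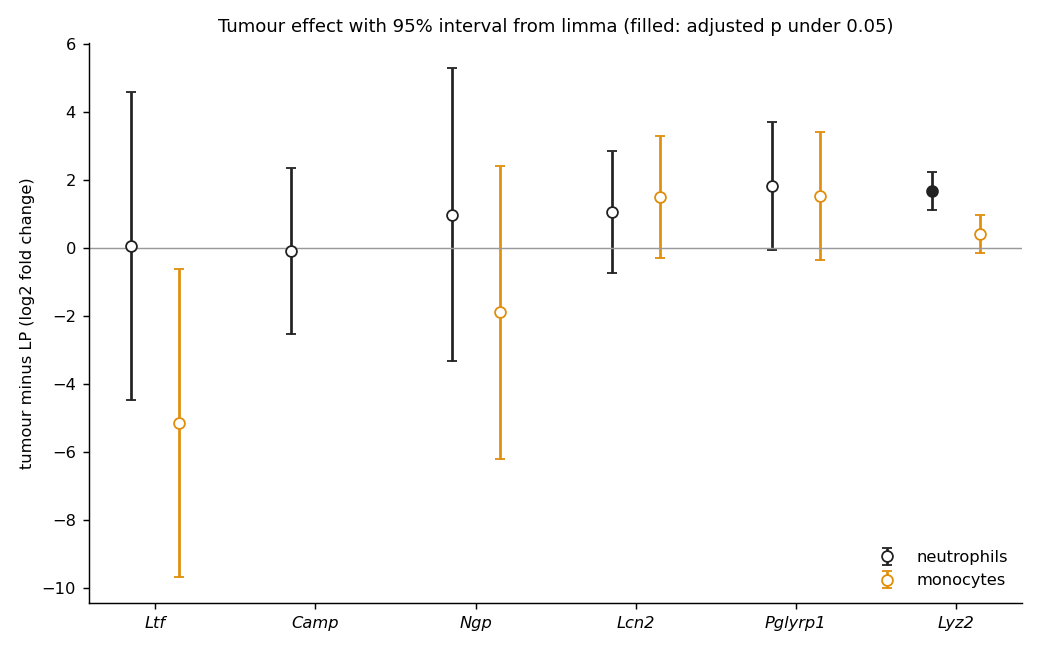
Difference of tumour from LP in log2 fold change (vertical axis) with 95% intervals for 6 granule protein genes, in neutrophils (black) and monocytes (orange), filled where the adjusted p was under 0.05. Only Lyz2 in neutrophils is filled, at 1.68, and the intervals of Ltf and Ngp are the widest. Camp of monocytes is left out of the plot for its few reads.

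Further genes of each granule stage were measured in the same comparison, from lists of known neutrophil genes. The counts called in each list stand beside 13.1% of all genes tested called higher and 19% called lower. Of 7 other primary granule genes tested, Ctsc rose and Gusb fell in tumour neutrophils. Ctsc, coding for cathepsin C, the enzyme that activates the granule serine proteases, was at 37.6, 44.3 and 37.1 RPKM in LP and 190 (I), 129 (II) and 95.9 (V) RPKM in tumours, a difference of 1.75 (SE 0.18, adjusted p = 6.07e-07). Gusb differed by -0.58 (adjusted p = 0.0452), with overlapping libraries. Ms4a3, a marker of granulocyte and monocyte progenitors that was too low for testing, had 40, 17 and 2 reads in LP and 0 reads in each tumour library.

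Of 13 other specific granule genes, 2 rose and none fell in tumour neutrophils, a count of rises near the 13.1% of all genes tested called higher. Their median difference was 0.80 against -0.12 over all genes tested. The median was 0.30 for the other primary granule genes, 0.35 for gelatinase granule genes and 0.80 for genes of band and mature neutrophils. It was -0.97 for the regulators, 0.78 for genes of processing and protease inhibitors, and 0.05 for cell cycle genes. Cd177 rose from 332, 557 and 112 RPKM to 2174, 985 and 1233 RPKM, a difference of 2.33 (SE 0.80, adjusted p = 0.0310), which was no longer called in 8 of 16 alternatives, among them those without LP III, LP V, tumour I or tumour V (adjusted p up to 0.18). Cybb, coding for the membrane subunit of the NADPH oxidase, differed by 1.03 (SE 0.23, adjusted p = 0.00157). With library sizes as summed reads, 0 of the 13 genes were called higher and 1 lower. Mmp8 was at 466, 518 and 178 RPKM in LP and 2740 (I), 1621 (II) and 1903 (V) RPKM in tumours, and did not pass. Of 8 gelatinase granule genes, Mmp9 (1.58, SE 0.52, adjusted p = 0.0265) and Fpr1 (1.90, SE 0.50, adjusted p = 0.00652) rose, and Slc11a1 (-0.62, SE 0.17) and Hvcn1 (-0.91, SE 0.18, adjusted p = 0.00069) fell. Mmp9 was not called without LP V, tumour I or tumour II. Fpr1, a receptor for bacterial formyl peptides, was at 1495, 1706 and 1002 RPKM in LP and at 5973, 5044 and 4385 RPKM in tumours.

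Of 13 genes of band and mature neutrophils, 1 rose and 1 fell, against 13.1% of all genes tested called higher and 19% called lower. Itgam, coding for CD11b, rose by 0.87 (SE 0.20, adjusted p = 0.00245), and Cxcr4, the receptor that holds neutrophils in bone marrow and rises with their age, fell by 0.97 on the log2 scale (SE 0.23, adjusted p = 0.00307). With summed reads, 0 were called higher and 2 lower. The receptors of mature neutrophils were high in both tissues. Cxcr2 was at 1382, 1598 and 1581 RPKM in LP and 929, 1132 and 1080.1 RPKM in tumours, and Csf3r at 1710, 1645 and 1635 RPKM in LP and 1869, 2258 and 2037 RPKM in tumours, neither passing the test. Of 8 regulators of granule genes tested, 3 fell and none rose, against 19% of all genes tested called lower, and 5 were called lower with summed reads. Cebpa, the C/EBP factor of progenitors, had 160, 64 and 208 reads in LP and 20, 0 and 4 in tumours, Cebpd differed by -1.48 (SE 0.48, adjusted p = 0.0243) and Runx1 by -0.69 (SE 0.16, adjusted p = 0.00304). Cebpd was not called without LP V, tumour II or tumour V. Gfi1, below the level for testing, had 38, 28 and 46 reads in LP and 0, 2 and 0 in tumours. Of 10 genes of granule protein processing and of protease inhibitors, Ctsc, Stfa2 and Anxa1 rose and none fell, while with summed reads 3 were called higher and 2 lower. Stfa2, of the stefin family of cathepsin inhibitors, rose by 3.38 (SE 0.85, adjusted p = 0.00475). Anxa1, coding for annexin A1, rose from 288, 266 and 164 RPKM to 1366, 1123 and 1293 RPKM, a difference of 2.43 (SE 0.41, adjusted p = 0.000165). Of 10 cell cycle genes, Mki67 fell by 1.17 (SE 0.24, adjusted p = 0.00082) and Tk1 rose by 1.06 (SE 0.40, adjusted p = 0.0472), with overlapping libraries. With summed reads, 0 of these 10 were called higher and 2 lower.

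**Figure D4:**
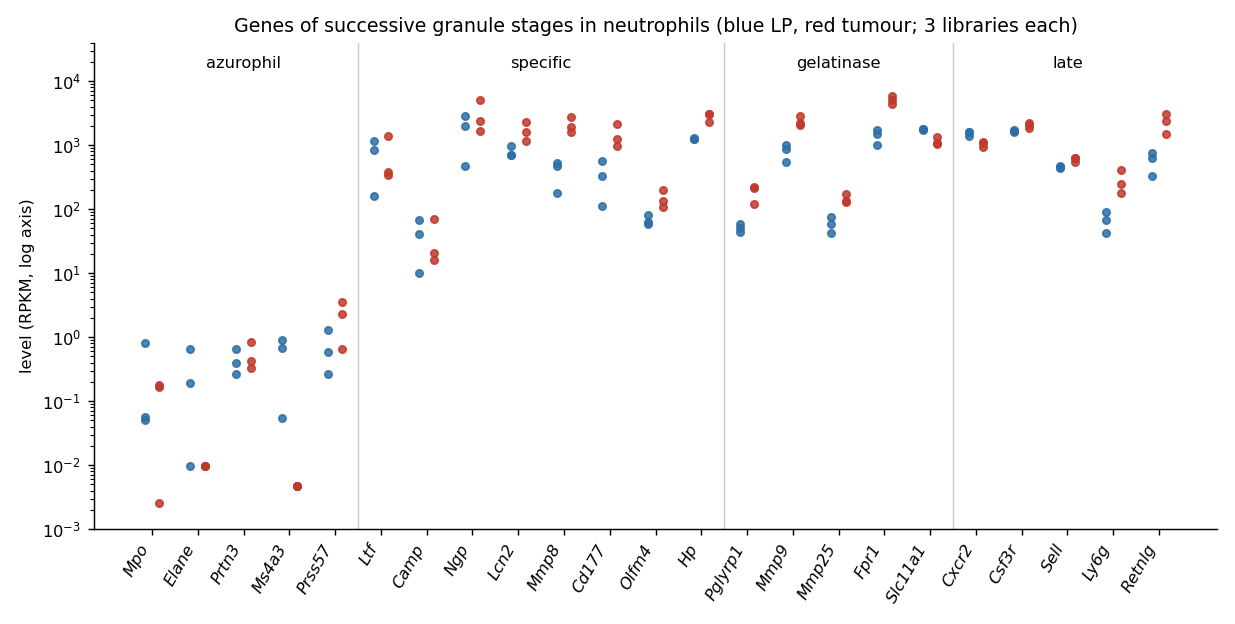
Levels in RPKM (vertical log axis) of genes of successive granule stages in neutrophils, 1 point per library, blue for LP and red for tumour. The primary granule genes plotted (Mpo, Elane, Prtn3, Ms4a3 and Prss57) lie below 4 RPKM in both tissues. Ctsc, at 37.1 to 190 RPKM, and Srgn, Cd63, Gusb, Cst7 and Mgst2 are not plotted. Of these, Srgn and Cd63 were called higher in neutrophils than in monocytes in both tissues, and Ctsc and Gusb lower. The specific, gelatinase and late genes plotted lie from 9.965 RPKM (Camp in an LP library) to 5973 RPKM (Fpr1 in a tumour library). The lowest points are those listed for 0 reads.

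Compared with monocytes of the same tissue, neutrophils were higher for the later granule genes and lower for Lyz2. In LP, 5 of the 7 members tested were called, 4 higher and 1 lower, against 54.5% of all genes tested, 24.1% higher and 30.4% lower. Lcn2 was higher by 7.23 on the log2 scale (SE 0.86, adjusted p = 7.41e-07), Pglyrp1 by 5.58 (SE 0.91, adjusted p = 3.25e-05), Ngp by 7.51 (SE 2.06, adjusted p = 0.00448) and Camp by 8.09 (SE 1.17, adjusted p = 8.08e-06), the last on 0, 4 and 12 reads in monocytes. Lyz2 differed by -2.41 (SE 0.27, adjusted p = 2.77e-07). In tumours, 6 of the 7 were called, 5 higher and 1 lower, against 58.1% of all genes tested, 23.3% higher and 34.9% lower. Ngp differed by 10.38 (SE 2.06, adjusted p = 0.000243), Ltf by 9.96 (SE 2.17, adjusted p = 0.00059), Lcn2 by 6.80 (SE 0.86), Pglyrp1 by 5.87 (SE 0.91) and Lyz2 by -1.14 (SE 0.27, adjusted p = 0.00109). Prtn3 was lower in all 3 tumour neutrophil libraries than in any tumour monocyte library and did not pass (-2.03, SE 1.16, adjusted p = 0.142), with adjusted p from 3.29e-05 to 0.347 over 16 alternatives and 5 of them under 0.05. Camp had 1, 0 and 2 reads in tumour monocytes against 522, 101 and 74 in tumour neutrophils. The 9 members with a row took 0.326% to 1.09% of the reads of neutrophil libraries, and Lyz2 alone 1.05% to 2.82% of those of monocytes and macrophages.

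Ltf in LP monocytes rested on 1 library. It was at 475 RPKM (32764 reads) in LP monocyte library III, and at 2.04 and 8.46 RPKM in IV and V, so that neutrophils and monocytes of LP overlapped. The difference of LP neutrophils from LP monocytes was 4.75 (SE 2.17, adjusted p = 0.0710), and it was 7.03 (adjusted p = 0.0128) without that library. The other granule genes did not share this high value, since library III had 0 reads of Camp and 3.64 RPKM of Ngp. Its reads of Ltf were 309 times those of Ngp, against 0.37 to 1.01 times in the neutrophil libraries. Ltf was 1 of 23 genes at least 8-fold above every other monocyte library in library III, with the keratin Krt20 (73.3 RPKM), Psca (53.6 RPKM), Prss22 (66.9 RPKM), Cxcl5 (106 RPKM) and Alox15 (32.9 RPKM), which were named after their values were seen. The summed level of 8 epithelial genes, which include Krt20, was 212 RPKM there against 19.5 and 63.6 RPKM in IV and V. That of 6 eosinophil genes, which include Alox15, was 34.1 RPKM against 1.77 and 1.98 RPKM. The part of either in the Ltf level was not tested.

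No member passed the test of tumour against LP monocytes, against 9.29% of all genes tested. With alternatives, 4 were called on log2(RPKM + 1), 2 on log2(RPKM + 0.1) and 2 with voom. At an unadjusted p under 0.05 only Ltf was counted, with a difference of -5.15 (SE 2.17, adjusted p = 0.157) that was -2.87 without LP library III. Lcn2 was at 3.64, 9.07 and 4.31 RPKM in LP monocytes and 25.9, 12.96 and 9.63 RPKM in tumour monocytes, without overlap, a 2.83-fold difference (SE 0.86 on the log2 scale, adjusted p = 0.329). Separation was found upwards for 16.2% and downwards for 15.1% of all genes tested. Pglyrp1 was at 2.35, 1.25 and 0.417 RPKM in LP and 4.57, 3.54 and 1.83 RPKM in tumours (1.53, SE 0.91, adjusted p = 0.346), with overlap. Ngp went the other way, from 3.64, 11.5 and 10.6 RPKM in LP to 2.40, 1.53 and 2.41 RPKM in tumours (-1.88, SE 2.06, adjusted p = 0.667), also without overlap. The ratio of Lcn2 to Ngp reads was 9.08 to 24.5 in tumour monocytes and 0.92 to 2.26 in LP monocytes, while it was 0.777 to 3.35 in all neutrophil libraries. Lyz2 was at 6867, 7994 and 9922 RPKM in LP and 12872, 9853 and 10049 RPKM in tumours (0.41, SE 0.27, adjusted p = 0.405).

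The tumour effect itself differed between neutrophils and monocytes for 1 of the 7 members, Lyz2, against 9.11% of all genes tested. The difference of the effects was 1.27 on the log2 scale (SE 0.38, adjusted p = 0.0400). It passed in 11 of 23 alternatives, with adjusted p from 0.00314 to 0.114, and was lost in 9 of the 12 fits that left out a library, those without LP monocytes IV or V, tumour monocytes II or V, LP neutrophils III, IV or V, or tumour neutrophils I or II. Its value stayed between 0.96 and 1.41. For Ltf the difference of effects was 5.21 (SE 3.07, adjusted p = 0.317), and for Pglyrp1 it was 0.29 (SE 1.28, adjusted p = 0.922).

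Macrophages held little of the granule transcripts other than Lyz2. Lyz2 was at 7723, 8133 and 8284 RPKM in LP MHCIIlow libraries II, III and IV and 14501, 16956 and 12736 RPKM in tumour MHCIIlow libraries I, V and VII, the highest levels of any group. The groups did not overlap, as for 22.7% of all genes tested upwards. The difference was 0.86 on the log2 scale (SE 0.27, adjusted p = 0.0228), but it was not called without tumour library V (adjusted p = 0.0924) and turned to -0.21 under quantile normalization. It was the only member called in MHCIIlow macrophages, against 23.3% of all genes tested. In MHCIIhi macrophages Lyz2 was at 8512, 9228 and 10577 RPKM in LP and 14275, 11741 and 9669 RPKM in tumours, with overlap (0.32, SE 0.27, adjusted p = 0.469). The member called there was Pglyrp1, on 0, 2 and 0 reads in LP and 12, 8 and 2 reads in tumours (adjusted p = 0.00803), against 19.5% of all genes tested, and it was not called with log2(RPKM + 1), with voom or with the 2 groups alone. Single macrophage libraries held more of a specific granule gene than their group. Ltf had 990 reads (8.77 RPKM) in LP MHCIIhi library III against 17 and 52 in IV and V. Tumour MHCIIhi library I had 134 reads of Ngp and 81 of Ltf, against 11 and 0 of Ngp and 0 and 0 of Ltf in V and VII, and tumour MHCIIlow library VII had 164 of Ngp and 158 of Ltf, against at most 4 of either gene in I and V.

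The order of the 8 groups differed between members. For Ngp, Lcn2 and Pglyrp1, tumour neutrophils were highest, then LP neutrophils, and every neutrophil library was above every monocyte and macrophage library, while LP and tumour neutrophils overlapped for Ngp. For Lyz2, tumour MHCIIlow macrophages were highest and LP neutrophils lowest. Across the 24 libraries the levels of Camp and Lcn2 (r = 0.926) and of Lcn2 and Pglyrp1 (r = 0.933) were the most alike among members, while Lyz2 ran opposite to them (r = -0.810 with Camp). The genes most like Camp over the 24 libraries were Wbp1l (r = 0.970), Csf3r (0.966) and Nadk (0.966), and those most like Lcn2 were Grina (0.983), Fxyd5 and Babam2. For Prtn3 they were Gm5960 (0.908), Sec22b (0.903) and Plac8 (0.902), and for Lyz2 Cct7 (0.961), Etfb (0.959) and Ap1s1 (0.952). These correlations describe libraries that share 8 group means, and carry no test. In the genome, Elane and Prtn3 are neighbours on chromosome 10 with 3072 bases between them (GRCm38), and Camp, Ngp and Ltf lie in that order on chromosome 9, with 570 kb between Camp and Ngp and 596 kb between Ngp and Ltf.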

How the data were processed

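RNA of 24 pools of sorted cells had been made into SMARTSeq v2 libraries, which do not keep strand or count molecules, and sequenced in paired ends. Per the labels, reads were aligned to GRCm38/mm10 with STAR 2.3, counted on genes with featureCounts 1.5, and processed with edgeR. The authors deposited log2 RPKM for 17301 genes, all 24 columns of which were used. Whole reads (tolerance 0.02) came out for 415224 of 415224 values with a prior count of 0.25 reads, and they gave the depth, a floor of 3 reads per library and the voom alternative. Spike-ins had been added, and the table holds 0 spike-in rows. Comparisons were made with limma (version 3.58.1, R 4.3.3; trended eBayes, 8 group means) on the deposited log2 RPKM of 12878 genes with a mean of at least 1 RPKM in a group, two-sided, with Benjamini-Hochberg adjustment within each of 7 comparisons and a threshold of 0.05. Promoters came from RefSeq (10 of 10 genes matched) and coordinates from GENCODE M21. The code was tested on simulated data, on which most false calls were in genes of at most 10 reads per library, so such genes are given by their reads.

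The members and lists were chosen with earlier results of these data known. Members, listed granule genes and markers were named in each comparison, and for each member the 3 genes most like it. The donor number of the labels was taken to mark the same pool within a tissue and so to pair libraries. This is an assumption, since the labels give only the number. Deviations of 29 such pairs correlated with r from -0.0661 to 0.2547 (median 0.0169), and the correlation from duplicateCorrelation was 0.0476. Alternatives were a pseudocount of 1 or 0.1 RPKM before the logarithm, a filter left out or set at a mean of 5 RPKM, quantile normalization, only the groups compared, arrayWeights, the donor number as a block, voom on the recovered reads, leaving out each library in turn and, chosen after seeing the data, library sizes as summed reads. No pair of libraries held identical values. Depth limits genes of few reads, and intervals cover only the spread of libraries within groups, pooled over 8 groups of 3 libraries. Python 3.11.15 with pandas 2.3.3 and matplotlib 3.10.9 made tables and figures.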

Additional observations from a re-analysis of the deposited data

Results flagged for a closer look

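The tumour effect on Lyz2 differed between neutrophils and monocytes in the main test, a call lost in 12 of 23 alternatives, among them 9 of the 12 fits that left out a library (adjusted p from 0.00314 to 0.114). It was 1.68 on the log2 scale in neutrophils (adjusted p = 8.64e-05) and 0.41 in monocytes (adjusted p = 0.405), and the limma interaction of 1.27 (SE 0.38, adjusted p = 0.0400) put it on the list of differences to look at again. Lyz2 was higher in 3 of 3 tumour neutrophil libraries than in any LP neutrophil library, while monocyte libraries overlapped. Groups of 3 libraries were too small for a test of single outlying libraries.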

How the results depend on the processing

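Over 34 fold changes of single members, 318 values from alternatives other than leaving out a library kept their direction and side of the threshold, 7 lost and 23 gained the call and 8 turned sign, and of those with a library left out 214 kept both, 10 lost and 2 gained the call and 8 turned sign. The cause was not tested. Of tumour against LP neutrophils, 3 members were called with log2(RPKM + 1) and with voom, and 2 with log2(RPKM + 0.1) and with only the groups compared. Of monocytes, 4 were called with log2(RPKM + 1), and 2 with log2(RPKM + 0.1) and with voom. Of MHCIIhi macrophages, 0 were called with log2(RPKM + 1), only the groups compared or voom and 2 with arrayWeights, and 1 to 2 with a library left out. Of MHCIIlow macrophages, 2 were called at a mean of at least 5 RPKM and with summed reads, 0 with only the groups compared, and 0 to 3 with a library left out. The difference of the tumour effects had 2 members called with log2(RPKM + 1), 0 with quantile normalization, only the groups compared or arrayWeights, and 0 to 1 with a library left out.

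Ltf in neutrophils turned to -0.32 with quantile normalization, -0.0073 with arrayWeights and -0.41 with summed reads, and ran from -0.81 to 0.60 with a library left out. Camp turned to 0.22 with voom and ran from -0.89 to 0.50. The difference of effects on Pglyrp1 turned to -0.33 with quantile normalization and -0.0184 with summed reads, and ran from -0.28 to 0.97. Lyz2 turned to -0.21 with quantile normalization in monocytes and in MHCIIlow macrophages. With the donor number as a replicate block, the count of members called stayed at 1 in neutrophils, 0 in monocytes, 5 in LP and 6 in tumours between neutrophils and monocytes, and 1 for the difference of effects, so that the block changed no count of members called.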
